A study of Mus musculus with 12 samples.

Results

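The Cyp2a and Cyp2d cytochromes P450 measured here were the 10 genes Cyp2a4, Cyp2a5, Cyp2a12, Cyp2a22, Cyp2d9, Cyp2d10, Cyp2d11, Cyp2d22, Cyp2d26 and Cyp2d40, taken by symbol from the 18560 genes of a liver RNA-seq table. Liver RNA came from mice aged 12 months in 4 groups of 3 libraries: wild-type males, OXR1A-/- males, wild-type females and OXR1A-/- females. OXR1A is an isoform encoded by Oxr1, which protects cells from oxidative damage, and the OXR1A-/- groups are called knockout below. The labels give no strain, no other allele and no treatment, and do not state if each library is a different animal; the p-values measure only the spread between these libraries, which may be technical. The series' title points to fatty liver and hormone response in knockout males, and the comparisons below ask how these P450 transcripts differed by genotype within each sex and by sex within each genotype.

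Cytochromes P450 are haem enzymes of the endoplasmic reticulum that oxidise steroids, drugs and other foreign compounds with electrons passed on by P450 reductase, the product of Por. The Cyp2a and Cyp2d enzymes are made mainly by hepatocytes, and several are classical examples of sex-biased liver genes in rodents: Cyp2d9, a testosterone hydroxylase, is male-biased, and Cyp2a4, a steroid hydroxylase, is female-biased. Pituitary growth hormone, secreted in pulses in males and more evenly in females, is known to set this bias through its receptor Ghr and the transcription factor Stat5b. Cyp2a5 oxidises coumarin and nicotine and is known to be induced by many forms of liver stress.

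The genes lie in 2 clusters of close copies. In the RefSeq annotation of build GRCm38, the Cyp2a genes are on chromosome 7, with Cyp2a4 at 26307192 to 26315088, Cyp2a5 at 26835339 to 26843264, Cyp2a22 at 26931631 to 26939413 and Cyp2a12 at 27029090 to 27036818. The Cyp2d genes are on chromosome 15, among them Cyp2d10 at 82402845 to 82407253, Cyp2d9 at 82452377 to 82456827 and Cyp2d26 at 82790107 to 82794452. Coding sequences of Cyp2a4 and Cyp2a5 were 98.5% identical over 1485 aligned bases, those of Cyp2a12 and Cyp2a22 97.0%, and those of Cyp2d9 and Cyp2d10 92.5%.

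Promoter sequences from RefSeq (GRCm38.p6) were found for 9 of the 10 genes, Cyp2d22 being the exception. The first pair is shown because Cyp2a4 and Cyp2a5 had nearly the same promoter and very different transcript levels in males. Each sequence is the stretch of up to 250 bases that RefSeq's promoter table gives before its start site, 5′ to 3′ on the gene's strand, ending where the gene's annotated span begins. For Cyp2a22 that left 223 bases. Capitals mark the bases at which the aligned pair differ.
Cyp2a4: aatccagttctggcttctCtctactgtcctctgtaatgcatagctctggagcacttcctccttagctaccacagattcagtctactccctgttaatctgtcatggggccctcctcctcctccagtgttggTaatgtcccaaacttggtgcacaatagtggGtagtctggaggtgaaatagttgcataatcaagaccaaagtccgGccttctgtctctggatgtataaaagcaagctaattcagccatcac
Cyp2a5: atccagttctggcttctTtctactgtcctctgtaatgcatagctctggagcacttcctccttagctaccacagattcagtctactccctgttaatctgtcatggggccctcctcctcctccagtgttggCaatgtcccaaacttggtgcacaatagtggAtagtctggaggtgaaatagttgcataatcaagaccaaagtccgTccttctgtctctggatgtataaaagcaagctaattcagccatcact
Cyp2a4 lies at chr7:26306942-26307191 and Cyp2a5 at chr7:26835089-26835338, both on the plus strand. Over 299 aligned bases, which run on past the start, 5 differed and 294 were identical. The next sequences belong to Cyp2d9, the male-biased gene, to its close copy Cyp2d11, and to the female-biased Cyp2a22, with capitals on the match to CAAAGNNC, a pattern like part of the binding site of Hnf4a, a nuclear receptor of hepatocytes.
Cyp2d9: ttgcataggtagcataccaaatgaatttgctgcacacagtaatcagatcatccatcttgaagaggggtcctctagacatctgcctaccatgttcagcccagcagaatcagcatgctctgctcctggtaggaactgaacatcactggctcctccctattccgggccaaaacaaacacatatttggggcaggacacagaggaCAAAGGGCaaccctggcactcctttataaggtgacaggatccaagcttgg
Cyp2d11: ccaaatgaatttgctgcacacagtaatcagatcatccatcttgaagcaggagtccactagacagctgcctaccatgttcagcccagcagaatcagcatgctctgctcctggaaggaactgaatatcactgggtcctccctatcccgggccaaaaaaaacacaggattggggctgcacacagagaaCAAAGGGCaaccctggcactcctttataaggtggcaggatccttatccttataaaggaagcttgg
Cyp2a22: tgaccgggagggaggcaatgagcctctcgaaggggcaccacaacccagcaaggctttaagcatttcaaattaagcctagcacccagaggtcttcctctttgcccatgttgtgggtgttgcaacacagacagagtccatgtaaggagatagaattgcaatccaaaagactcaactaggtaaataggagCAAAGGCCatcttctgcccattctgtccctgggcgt
Cyp2d9 lies at chr15:82452127-82452376 on the plus strand, and Cyp2d11 at chr15:82394023-82394272 and Cyp2a22 at chr7:26939414-26939636 on the minus strand. The promoter table's start site lies inside the annotated span of Cyp2d10, Cyp2a22 and Cyp2d26. The full 300-base windows, which run to 50 bases after the start site, were compared next. Those of Cyp2d9 and Cyp2d10 were 84.5% identical, and those of Cyp2d9 and Cyp2d11 89.0%.

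The search covered 4 patterns on both strands of the 300-base windows, and they were chosen with these sequences in view. CAAAGNNC matched in 9 of the 9 promoters, against 17.8% of the 27025 promoters of the table. The pattern TATAA of a core promoter, which can overlap its own reverse complement, also matched in 9 of 9, against 25.5%. TTCNNNGAA, the core of a Stat binding site, matched in 0 of 9, against 8.47%, which says only that these letters are not in these windows. TTGCNNAA, a pattern of C/EBP sites, matched in 2 of 9, Cyp2a4 and Cyp2a5, against 10.8%. The promoters are of close copies, so matches are not independent, and a match is a description of the letters.

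Levels are in FPKM, the number of fragments divided by transcript length and library depth. The steps between low values point to about 19800000 to 29400000 fragments a library, a fitted and therefore approximate depth. Oxr1 itself, summed over its isoforms, ranged from 12.1 to 23.3 FPKM over the male wild-type and 22.1 to 25.0 over the male knockout libraries. For females the ranges were 17.4 to 20.7 and 19.7 to 21.0 FPKM. A gene-level value therefore does not check the loss of this isoform. Hepatocyte markers were high in all libraries, with a summed level of 46379 to 65353 FPKM over 6 genes, and the 4 markers of exocrine pancreas and the 3 of kidney were under 1 FPKM throughout. Traces of the other sex were found in 3 libraries: Xist was 0.82 FPKM in knockout male 3, or 2.25% of the wild-type female mean against 0.110 to 0.220% in the other males, and Ddx3y was 5.18% of the wild-type male mean in wild-type female 1 and in knockout female 1, against 0 to 0.182% in the other females. Where leaving out these 3 libraries ended a call named below, that is stated beside the call. In bulk liver, fewer cells of a type and less RNA per cell cannot be told apart.

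In wild-type livers the sexes differed most in 3 of the 10 genes: Cyp2a4 and Cyp2a22 were far lower in males and Cyp2d9 far higher. Of the 9 genes tested, 1 was called higher in males (Cyp2d9) and 4 lower (Cyp2a4, Cyp2a22, Cyp2a12 and Cyp2d26) at an adjusted p under 0.05, while 2.31% of all 11514 genes tested were called higher and 11.1% lower. The groups did not overlap for 7 of the 9, against 40.2% of all genes. The median log2 difference of the 9 was -0.43, against -0.21 over all genes.

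Cyp2a4 was 0.15, 0.26 and 0.32 FPKM in wild-type males 1 to 3. In wild-type females 1 to 3 it was 655, 1036 and 464 FPKM. The male values correspond to about 6, 13 and 12 fragments, so the male level was just above the lowest values the table can hold. The ratio of the means was 2953 (log2 difference -9.10, SE 0.60, limma adjusted p = 4.65e-06). Cyp2a22 was 4.99, 3.98 and 4.83 FPKM in males and 133, 125 and 113 in females, 26.9-fold apart (log2 difference -4.48, SE 0.30, adjusted p = 5.34e-06). Cyp2a5, whose promoter and coding sequence nearly match those of Cyp2a4, was 356, 257 and 287 FPKM in males and 1082, 1176 and 403 in females. Its groups did not overlap, and its difference did not pass the test (log2 difference -1.43, SE 0.46, adjusted p = 0.0598). It passed when wild-type female 3 (adjusted p = 0.0202), knockout male 2 (0.0189) or knockout male 3 (0.0376) was left out, with only these 2 groups fitted (0.0498) and with the replicate number as a block (0.0454), and did not without the 3 trace libraries (0.171). Cyp2a12, a steroid hydroxylase, was 288 to 338 FPKM in males and 453 to 510 in females (log2 difference -0.64, adjusted p = 0.00600).

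Cyp2d9 was 592, 624 and 686 FPKM in wild-type males and 20.5, 8.03 and 3.82 in wild-type females. The ratio of the means was 58.9 (log2 difference 6.02, SE 0.62, adjusted p = 0.000102). The male values lay close together, while the female values spread widely. The highest female value, 3.23% of the male mean, came from wild-type female 1, a library with a Y-chromosome trace. Without it the ratio of the means was 107. The ratio was 52.2 without wild-type female 2 and 44.5 without wild-type female 3. Without the 3 trace libraries Cyp2d9 (adjusted p = 9.27e-05), Cyp2a4 (6.87e-05), Cyp2a22 (8.06e-05) and Cyp2a12 (0.0380) stayed called in this comparison. Cyp2d26, whose role is less well known, was 392 to 465 FPKM in males and 558 to 607 in females (log2 difference -0.43, adjusted p = 0.0179), and its call was lost without the trace libraries (adjusted p = 0.0992), without wild-type female 2 (0.0807) and with only these groups fitted (0.0584). Under median-ratio scaling, which moves the median of all genes from -0.21 to 0.03 and the split of all calls from 266 higher and 1273 lower to 618 and 456, neither Cyp2a12 (adjusted p = 0.221) nor Cyp2d26 (adjusted p = 0.619) passed.

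Markers of other liver cells also differed between the wild-type sexes. Lower in males were 6 of 7 Kupffer cell markers, genes of the resident liver macrophages, 5 of 6 sinusoidal endothelium markers and 3 of 6 stellate cell markers. Of all genes tested, 11.1% were called lower in males. The summed Kupffer level was 67.2 to 105 FPKM in wild-type males and 184 to 299.7 in wild-type females. The endothelial sums were 61.3 to 69.3 and 109 to 123 FPKM, and the stellate sums 90.2 to 109.5 and 142 to 159 FPKM, none of them overlapping. Most of the stellate sum was Dcn, with means of 87.8 FPKM in wild-type males and 129.7 in wild-type females. Hepatocyte sums overlapped, with 1 of 6 markers called lower in males. Of 8 periportal hepatocyte markers 1 was called higher and 1 lower in males. Without the 3 trace libraries the calls were 3, 2 and 0 for Kupffer, endothelial and stellate markers, and 0 for hepatocyte and periportal markers. Their part in the P450 sex differences was not tested.

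**Figure D1:**
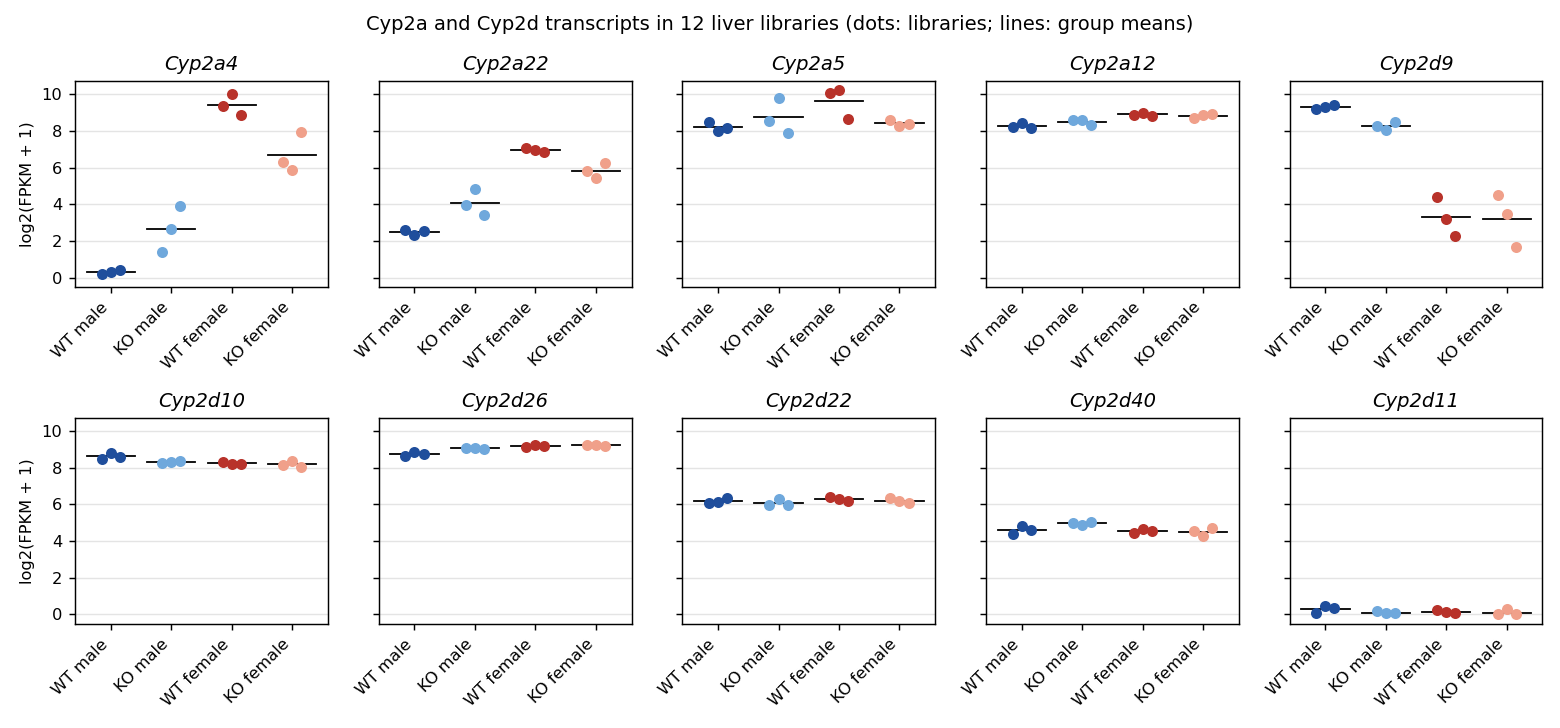
Each panel plots log2(FPKM + 1) of a P450 gene in wild-type (WT) and knockout (KO) males and females, with a dot per library and a line at the group mean. Cyp2a4 and Cyp2a22 are lowest in wild-type males and highest in wild-type females, with knockout groups between them, Cyp2d9 shows the opposite sex difference, and Cyp2d11 is near 0 in all groups.

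In knockout males Cyp2a22 rose and no gene of the 9 fell. That is 1 of 9 called higher, while 2.13% of all genes were called higher and 0.426% lower. For 6 of the 9 the knockout and wild-type males did not overlap, against 23.7% of all genes, and the median log2 difference of the 9 was 0.30, against 0.19 over all genes. Under median-ratio scaling the median of all genes was 0.00 and the calls were 68 higher and 77 lower in place of 245 and 49.

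Cyp2a22 was 14.8, 27.9 and 9.70 FPKM in knockout males 1 to 3, each above the 3.98 to 4.99 of wild-type males. The mean was 3.79-fold higher (log2 difference 1.60, SE 0.30, limma adjusted p = 0.0234). The call was lost when wild-type male 1, 2 or 3 (adjusted p = 0.0519, 0.0611 and 0.0766) or knockout male 1 (0.0556) was left out, and in the fit of the male libraries alone (0.167). Cyp2a4 was 1.69, 5.32 and 14.2 FPKM in knockout males, about 71, 234 and 508 fragments, against 0.15 to 0.32 FPKM in wild-type males. The knockout values spread widely and all lay above the wild-type values. The mean was 29.0-fold higher, and on the scale of log2(FPKM + 1), which shrinks low values, the difference was 2.36 (SE 0.60) and missed the threshold (adjusted p = 0.0580). Without knockout male 3 the knockout mean was 3.50 FPKM and the fold 14.4. Without all 3 trace libraries the log2 difference was 1.73 (SE 0.60, adjusted p = 0.158). With a pseudocount of 0.1 it passed (log2 difference 3.95, adjusted p = 0.0169), as it did with a minimum mean of 5 FPKM (adjusted p = 0.0492) and without knockout male 1 (2.98, adjusted p = 0.0417). Knockout male 3, which had the highest Cyp2a4, is also the library with the Xist trace: there Cyp2a4 was 1.97% of the wild-type female mean and Xist 2.25%. In knockout males 1 and 2 Cyp2a4 was 0.235% and 0.740% of that mean, with Xist at 0.220% and 0.137%. Without the 3 trace libraries Cyp2a22 stayed called in males (1.93, adjusted p = 0.0293).

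Cyp2d9 was 309, 262 and 359 FPKM in knockout males and 592 to 686 in wild-type males, with no overlap. The wild-type mean was 2.05-fold higher. The difference did not pass (log2 difference -1.04, SE 0.62, adjusted p = 0.314) in the fit of all 12 libraries, which takes in the wide spread of Cyp2d9 in females. In the fit of the 6 male libraries the adjusted p was 0.0877. The other genes shifted by less. Cyp2d10 was 306 to 329.7 FPKM in knockout and 353 to 446 in wild-type males (log2 difference -0.30, adjusted p = 0.175), Cyp2d26 was 505 to 539.7 against 392 to 465 (0.30, 0.116), and Cyp2d40 was 28.4 to 31.8 against 20.0 to 27.7 (0.35, 0.168). These 3 groups did not overlap either. Cyp2a12 was 316 to 379.7 FPKM against 288 to 338, a log2 difference of 0.22 that turned to -0.02 under median-ratio scaling.

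Markers of other liver cells moved with genotype in males, where 2.13% of all genes tested were called higher in knockout and 0.426% lower. Of 7 Kupffer cell markers tested 5 rose in knockout males (Cd5l, Csf1r, Emr1, Timd4 and Vsig4), and their summed level was 153 to 338 FPKM against 67.2 to 105 in wild-type males. Of 6 sinusoidal endothelium markers 3 rose, and the summed level was 92.9 to 101 against 61.3 to 69.3 FPKM. Of 6 stellate cell markers 1 rose, Dcn, and the sum was 138 to 213 against 90.2 to 109.5 FPKM. Most of that sum was Dcn itself, with means of 148 FPKM in knockout and 87.8 in wild-type males. Without the 3 trace libraries the calls were 0 for Kupffer, 2 for endothelial and 0 for stellate markers. Of 8 pericentral hepatocyte markers 1 rose (Rhbg, an ammonium transporter) and of 8 periportal markers 1 fell (Cdh1, an adhesion protein), with overlapping sums. Most of the pericentral sum was Cyp2e1, with means of 4223 FPKM in wild-type and 4334 in knockout males. Among uncalled pericentral markers, Glul was 278 to 394 FPKM in knockout and 188 to 248 in wild-type males. Cyp1a2 moved the other way, with 139 to 180 against 189 to 276 FPKM. None of the 6 hepatocyte markers passed the test, and their sum was 46379 to 48263 FPKM in knockout and 55625 to 65353 in wild-type males. Most of the hepatocyte sum was Alb, with means of 33284.5 FPKM in knockout and 42195.2 in wild-type males. The part of these shifts in the P450 differences was not tested.

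In females 0 of the 9 genes were called in knockout livers, where 2 of 11514 genes, 0.0174%, were called by limma. Before adjustment, 706 genes had a p under 0.05, and 3 of these were P450s of this set: Cyp2a4, Cyp2a22 and Cyp2a5. Array weights, which give less weight to deviating libraries, called those 3 lower. The groups did not overlap for 3 of 9, against 17.6% of all genes, and the median log2 difference was -0.07, against 0.00 over all genes.

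Cyp2a4 was 76.7, 57.7 and 241 FPKM in knockout females 1 to 3, each below the 464 to 1036 of wild-type females. The mean was 5.74-fold lower (log2 difference -2.72, SE 0.60, limma adjusted p = 0.390). With each library left out the fold ranged from 4.47 (without wild-type female 2) to 10.7 (without knockout female 3). Without the trace libraries it was 5.03. Cyp2a22 was 54.4, 42.7 and 76.3 FPKM in knockout females and 113 to 133 in wild-type females, 2.14-fold lower (log2 difference -1.12, SE 0.30, adjusted p = 0.587). In both genes knockout female 3 was the knockout library nearest to wild type. Cyp2a5 was 384, 308 and 331 FPKM in knockout females, just below wild-type female 3 at 403 and well below wild-type females 1 and 2 (log2 difference -1.24, SE 0.46, adjusted p = 0.780). Cyp2d9 was 21.6, 10.1 and 2.24 FPKM in knockout females and overlapped fully with wild-type females (log2 difference -0.07, SE 0.62, adjusted p = 0.992). Its highest value came again from a library with a Y-chromosome trace. Cyp2a12 was 422 to 474 FPKM, Cyp2d10 257 to 330.5 and Cyp2d26 583 to 606 in knockout females, each overlapping with wild type.

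**Figure D2:**
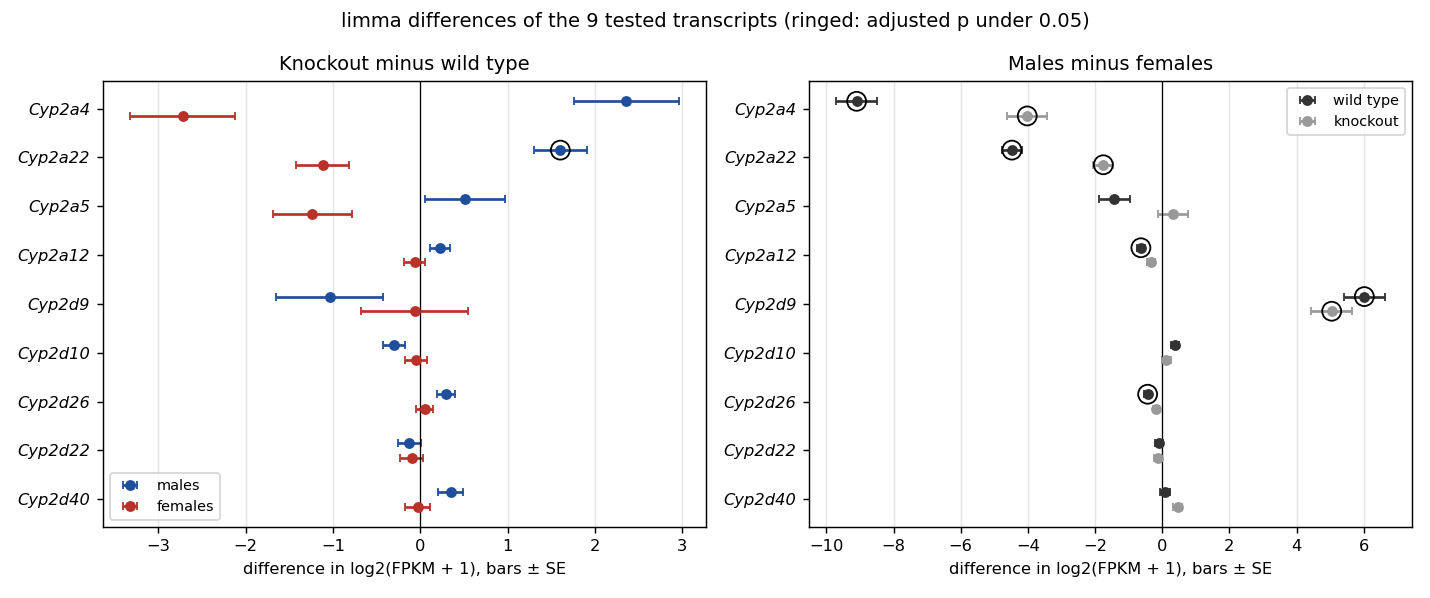
The left panel plots the knockout minus wild-type difference in log2(FPKM + 1) with its SE for the 9 tested genes in males (blue) and females (red), and the right panel the male minus female difference in wild-type (black) and knockout (grey) livers. Rings mark an adjusted p under 0.05: Cyp2a22 in males on the left, and on the right 5 genes in wild type and 3 in knockout.

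Cyp2a4 and Cyp2a22 therefore lay higher than wild type in each knockout male and lower than wild type in each knockout female. The difference between the male and the female effect was 2.72 for Cyp2a22 (SE 0.43, adjusted p = 0.0641) and 5.08 for Cyp2a4 (SE 0.85, adjusted p = 0.0702) on the log2 scale. Neither passed, and 0 of the 9 genes were called by limma, while 3 of 11514 genes, 0.0261%, were (1040 genes, 3 of them in this set, had an unadjusted p under 0.05). The call changed with the libraries used: Cyp2a22 passed without knockout male 3 (3.05, adjusted p = 0.0118) or without knockout male 2 (2.34, adjusted p = 0.0352), and Cyp2a4 without knockout male 3 (4.45, adjusted p = 0.0489). Without all 3 trace libraries neither passed (adjusted p = 0.128 for Cyp2a22 and 0.277 for Cyp2a4). For Cyp2a5 the difference was 1.74 (adjusted p = 0.540), and for Cyp2d9 -0.97 (adjusted p = 0.605).

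The sex difference between knockout livers was still called for Cyp2d9, higher in males, and for Cyp2a4 and Cyp2a22, lower in males. That is 1 of 9 called higher, against 1.67% of all genes, and 2 of 9 lower, against 2.01%. The sexes did not overlap for 6 of 9, against 22.1% of all genes, and the median log2 difference was -0.12, against -0.01 over all genes. From the values above, the female mean of Cyp2a4 was 17.7-fold the male mean in knockout livers (log2 difference -4.02, SE 0.60, adjusted p = 0.00296), where it was 2953-fold in wild type. The knockout fold was 35.7 without knockout male 3, the library with the Xist trace, 9.52 without knockout female 3 and 42.6 without the 3 trace libraries. For Cyp2a22 the fold was 3.31 (log2 difference -1.75, SE 0.30, adjusted p = 0.00701), where it was 26.9. The male mean of Cyp2d9 was 27.4-fold the female mean (log2 difference 5.05, SE 0.62, adjusted p = 0.000785), where it was 58.9-fold in wild type. For Cyp2d9 the knockout fold was 50.2 without knockout female 1, which has a Y-chromosome trace, and 19.6 without knockout female 3. The test of these changes in the sex difference is the difference between the genotype effects given above, which did not pass. Without the 3 trace libraries the Cyp2a22 call was lost (adjusted p = 0.0978), as it was with only these groups fitted (0.0673), and those of Cyp2a4 (0.00872) and Cyp2d9 (0.000962) were kept. None of the Kupffer, endothelial or stellate markers was called between the knockout sexes. Of the hepatocyte markers Ahsg, a secreted liver glycoprotein, was lower in males. Of 8 periportal hepatocyte markers 2 were called lower in males, and 0 without the 3 trace libraries. Summed hepatocyte levels were 46379 to 48263 FPKM in males and 60905 to 63229 in females. Cyp2d40 was 28.4 to 31.8 FPKM in knockout males and 18.6 to 24.8 in knockout females, and its difference did not pass (log2 difference 0.46, adjusted p = 0.117).

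Because FPKM are per length of transcript, the genes can be ranked within a group. In wild-type males the order by mean was Cyp2d9, Cyp2d26, Cyp2d10, Cyp2a12 and Cyp2a5, with overlapping libraries between Cyp2d26 and Cyp2d10 and between Cyp2a12 and Cyp2a5. Cyp2d9 was rank 101 of all 18560 genes there. In knockout males Cyp2d9 was the fifth of the 10, at rank 235 of all genes, behind Cyp2d26, Cyp2a5, Cyp2a12 and Cyp2d10, and each of these neighbours overlapped with the next. In wild-type females Cyp2a5, Cyp2a4 and Cyp2d26 led, with overlap between each neighbour, and Cyp2a4 was rank 88 of all genes. In knockout females Cyp2d26 and Cyp2a12 led without overlap between them, and Cyp2a4 was rank 621. Cyp2d11 was 0 to 0.40 FPKM in the 12 libraries, at most about 19 fragments, and was not tested. Cyp2d22, often described as the nearest mouse counterpart of the human debrisoquine hydroxylase, was 61.4 to 83.7 FPKM over all libraries with overlap in all 4 comparisons of groups. Cyp2d40 took the seventh place in males and the eighth in females.

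The summed level of the 4 Cyp2a genes was 611 ± 37.6 FPKM in wild-type males, 876 ± 370 in knockout males, 2205 ± 716 in wild-type females and 979 ± 127 in knockout females (SD, n = 3 each). The female groups did not overlap, and the male groups did. Cyp2a4 made up 32.3% ± 4.18 of the sum in wild-type females and 12.1% ± 8.18 in knockout females, but 0.0405% ± 0.0163 in wild-type males and 1.03% ± 1.25 in knockout males. For the 6 Cyp2d genes the sum was 1550.2 ± 111 FPKM in wild-type males, 1247 ± 35.8 in knockout males, 989 ± 26.1 in wild-type females and 994 ± 53.3 in knockout females. The male groups did not overlap. Cyp2d9 made up 40.9% ± 2.46 of it in wild-type and 24.8% ± 3.18 in knockout males, while the share of Cyp2d26 was 27.6% ± 0.806 and 42.1% ± 2.60. In females Cyp2d26 was 58.5% ± 2.50 and 60.2% ± 2.14 of the sum, and Cyp2d9 was 1.08% ± 0.856 and 1.12% ± 0.952. No test was made of these sums.

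**Figure D3:**
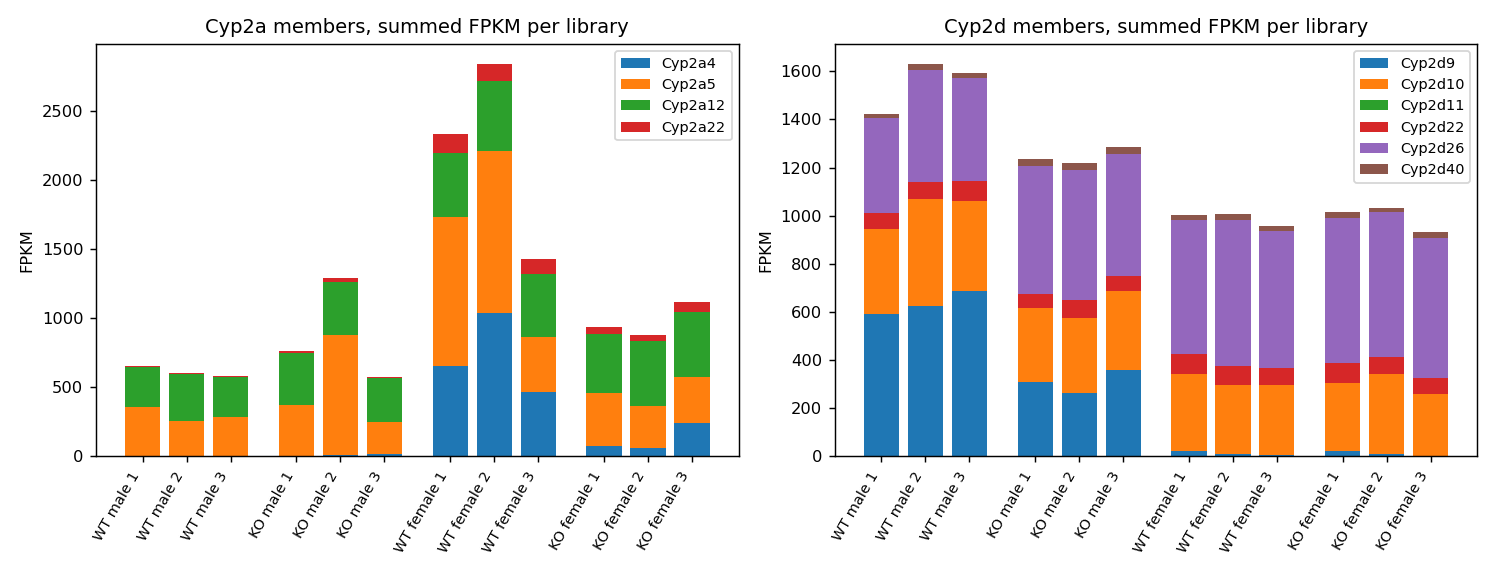
Stacked bars give the FPKM of the Cyp2a genes (left) and the Cyp2d genes (right) in each of the 12 libraries, from 0. The Cyp2a sum is highest in wild-type females 1 and 2, where Cyp2a4 and Cyp2a5 add most, and the Cyp2d sum is highest in wild-type males, where Cyp2d9 adds 592 to 686 FPKM.

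Cyp2a5 varied widely in knockout males and in wild-type females. In knockout males it was 369, 876 and 234 FPKM, so that knockout male 2 lay above the wild-type males, knockout male 1 just above them and knockout male 3 below them. The log2 difference of 0.51 (SE 0.46, adjusted p = 0.500) became -0.02 without knockout male 2. That library was also the highest knockout male in Cyp2a22, in the Kupffer marker Cd5l (106 FPKM, against 45.2 and 61.6) and in Hmox1, the haem-degrading enzyme induced by oxidative stress (33.1 FPKM, against 19.9 and 14.8). It was the lowest knockout male in Por (57.9 FPKM, against 67.2 and 87.8). Nfe2l2, the regulator of antioxidant genes, was 45.9 FPKM in it, against 47.9 and 38.6 in knockout males 1 and 3. A link of these genes to Cyp2a5 was not tested. In wild-type females the library that was low in Cyp2a5, number 3, was also low in Dbp, a clock-controlled transcription factor, with 4.44 FPKM against 71.6 and 90.8 in numbers 1 and 2. Por moved likewise, with 244, 232 and 125 FPKM in wild-type females 1 to 3. In knockout females Dbp was 9.92, 9.01 and 1.74 FPKM and Por 144, 86.9 and 105. In males Dbp was 0.68 to 2.39 FPKM. Dbp and its relatives are known to bind the Cyp2a4 and Cyp2a5 promoters and to swing with the hour of the day. The labels give no hour of sampling for any group. In wild type, Dbp had means of 1.92 FPKM in males and 55.6 in females. Nr1d1, a repressor of the circadian clock, had means of 1.65 and 72.2 FPKM. An hour that differed between groups could not be told apart from sex or genotype in any comparison, including those of Cyp2a4. The part of the hour in the P450 values was not tested.

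**Figure D4:**
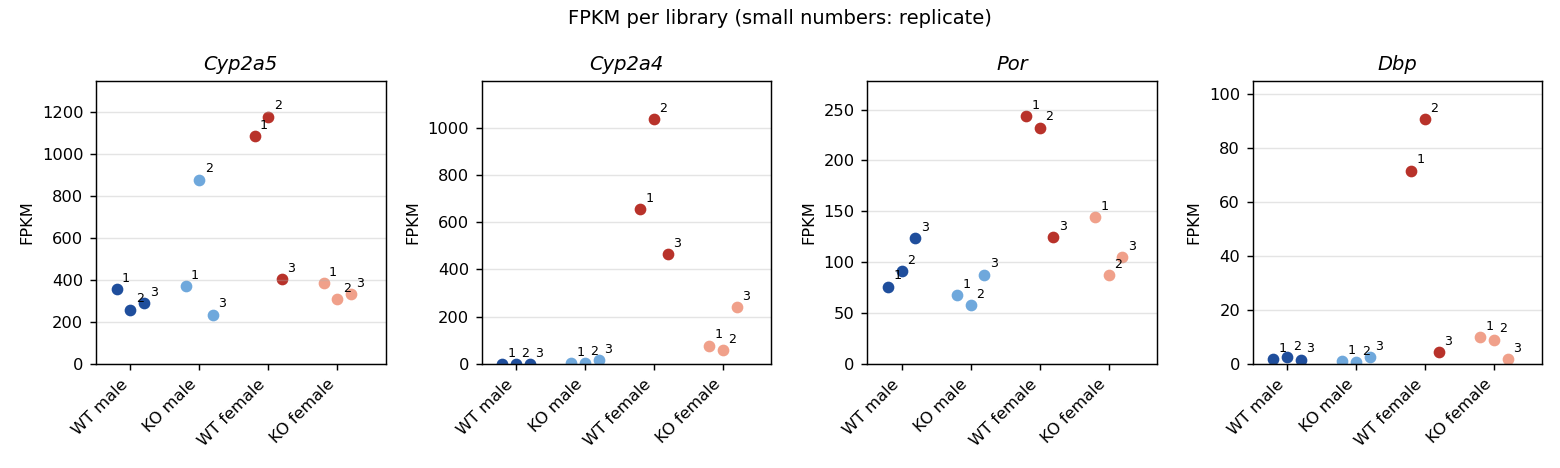
FPKM of Cyp2a5, Cyp2a4, Por (P450 reductase) and Dbp (a clock-controlled factor) are plotted per library, with the replicate number beside each point. Wild-type female 3 lies below wild-type females 1 and 2 in all 4 genes, most in Dbp (4.44 against 71.6 and 90.8 FPKM).

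The neighbouring genes of the 2 clusters were followed as well. Of 8 other rows of the table from these clusters 4 passed the filter. Cyp2g1, which lies on chromosome 7 between Cyp2a4 and Cyp2a5 and is known from olfactory tissue, stayed at 0.13 to 0.20 FPKM in wild-type males and read 0.22, 1.26 and 0.37 FPKM in knockout males. Wild-type females had 7.58 to 13.95 FPKM of it, and knockout females 4.86 to 6.50. It was lower in males in wild-type livers (log2 difference -3.26, adjusted p = 8.56e-06) and in knockout livers (-2.03, adjusted p = 0.000639). Its knockout effects did not pass in males (0.42, adjusted p = 0.300) or females (-0.81, adjusted p = 0.593). With array weights the female effect passed (-0.94, adjusted p = 0.0367). Cyp2f2, a P450 at the other end of the chromosome 7 cluster, was called in none of the comparisons in the fit of all libraries, with means of 535 and 427 FPKM in wild-type and knockout males and 404 and 320.3 in wild-type and knockout females. It passed as higher in males under median-ratio scaling in wild type (adjusted p = 0.0355) and without knockout female 2 in knockout (0.0480). The pseudogenes Cyp2d13 and Cyp2d37-ps were not called in any comparison either, and their means lay between 26.8 and 99.0 FPKM. With array weights Cyp2d37-ps passed as lower in knockout females (-0.61, adjusted p = 0.0471).

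Of 7 genes for electron supply and haem of P450s, none was called by genotype in either sex. In wild-type livers 2 of the 7, Por and Hmox1, were lower in males, against 11.1% of all genes. Por had means of 97.0 FPKM in wild-type males and 200.2 in wild-type females (log2 difference -1.01, adjusted p = 0.0385), and the call was lost under median-ratio scaling (adjusted p = 0.165), without the 3 trace libraries (0.138) and without wild-type male 1 or 2, wild-type female 1 or 2 or knockout female 3 (0.0550 to 0.136). Hmox1 was 10.1 against 26.4 FPKM (-1.24, adjusted p = 0.0128). In knockout males Hmox1 was 22.6 FPKM on average against 10.1 in wild-type males, and the difference did not pass (1.01, adjusted p = 0.0649); it passed without knockout male 3 (1.26, adjusted p = 0.0278). Pgrmc1, a haem-binding partner of P450s, was 771 against 596 FPKM (0.38, adjusted p = 0.0931). With array weights Por passed as lower in knockout than in wild-type females (-0.91, adjusted p = 0.0479).

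Of 28 regulators of these genes or of sex-biased liver expression, none was called by genotype in males or females. In wild type 5 were lower in males than in females (Cux2, Prlr, Nr1d1, Dbp and Ghr), and in knockout 3 were (Cux2, Prlr and Nr1d1). Of all 11514 genes tested, 11.1% were called lower in males in wild type and 2.01% in knockout. Without the 3 trace libraries 3 of the 5 and 1 of the 3 stayed called. Between knockout livers Cux2 (adjusted p = 0.0964) and Prlr (0.174) were then lost, and between wild-type livers Dbp (0.133) and Ghr (0.163). Nr1d1 was lost between knockout livers without knockout male 1 or 2 or knockout female 1 or 2 (adjusted p = 0.0639 to 0.104), with no filter (0.0541) and with only these groups fitted (0.0704), and Prlr without knockout female 3 (0.0508). Dbp was lost in wild type without any 1 of the 3 males or without female 1 or 2 (0.0535 to 0.0995). Both Dbp and Nr1d1 are tied to the clock, and the labels do not give the hour of sampling. Cux2, a female-specific transcription factor of liver, stayed at 0.02 to 0.04 FPKM in wild-type males and 0.03 to 0.19 FPKM in their knockout counterparts. Wild-type females had 5.78 to 14.85 FPKM of it, and knockout females 1.76 to 6.93. Prlr, the prolactin receptor, was 13.1 to 31.9 FPKM in wild-type and 41.2 to 65.0 in knockout males without overlap, a difference that did not pass (log2 difference 1.15, adjusted p = 0.0599). In females Prlr was 162 to 216 and 121 to 199 FPKM. Nr1d1, a repressor of the circadian clock, was 1.15 to 2.17 FPKM in wild-type males and 2.85, 4.94 and 18.2 in knockout males (1.54, adjusted p = 0.123), with 31.6 to 97.9 and 33.6 to 60.3 in wild-type and knockout females. Ghr, the growth hormone receptor, had a log2 difference of -0.37 between the sexes in wild type (adjusted p = 0.0499), which became -0.07 under median-ratio scaling (adjusted p = 0.800) and missed the threshold without any 1 of 9 libraries (0.0571 to 0.165). Among factors that did not pass in knockout males were Ahr, the dioxin receptor (0.83, adjusted p = 0.0827), Nfe2l2, the regulator of antioxidant genes (0.43, adjusted p = 0.0974), and Hnf4a (0.42, adjusted p = 0.133). In knockout females the smallest p-values of the regulators belonged to Ghr (-0.33, adjusted p = 0.740), Tef, a relative of Dbp (-1.30, adjusted p = 0.749), and Dbp (-2.31, adjusted p = 0.780). Without wild-type female 3 Tef (adjusted p = 0.0202) and Dbp (0.0366) passed. With array weights Ghr passed (-0.35, adjusted p = 0.0462).

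The genes most like Cyp2a4 and Cyp2d9 over the 12 libraries were found by the root mean square difference of log2(FPKM + 1) after centring each gene. Near Cyp2a4 were Cyp3a44 (0.889), Cyp3a16 (1.05), Cyp3a41b (1.18) and Cyp2c69 (1.22), where a flat line would give 3.59. In knockout male 3, the library with the Xist trace, these 4 genes and Cyp2a4 were all higher than in the other 5 males. The part of that trace was not tested. In knockout male 2 the centred value of Cyp2a4 was -2.11 and those of the 4 others -4.34 to -3.59. Cyp2a4 also lay above all 4 in wild-type females 1 and 2, and below all 4 in knockout females 1 and 3 and knockout male 3. Wild-type and knockout female means were 719 and 125 FPKM for Cyp2a4. They were 289 and 143 for Cyp3a44, 233 and 148 for Cyp3a16, 451 and 389 for Cyp3a41b and 786 and 822 for Cyp2c69. For Cyp2d9 the nearest genes were Elovl3, a fatty acid elongase (0.382), Cyp4a12a (0.622), the urinary protein gene Mup20 (0.762), the Y-linked Eif2s3y (0.798) and Nat8 (0.925), where a flat line would give 2.89. Mean FPKM in wild-type and knockout males were 229 and 141 for Elovl3, 170 and 133 for Cyp4a12a, 11666 and 2617 for Mup20 and 31.6 and 31.3 for Eif2s3y. For Nat8 they were 51.0 and 39.3. Cyp2d9 thus had a lower knockout than wild-type male mean, as Elovl3, Cyp4a12a, Mup20 and Nat8 did, and Eif2s3y had nearly equal means. The male genotypes overlapped for Elovl3 and Cyp4a12a, and did not for Cyp2d9, Mup20 and Nat8. The likeness is a description that rests mainly on the sex difference the genes share.

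**Figure D5:**
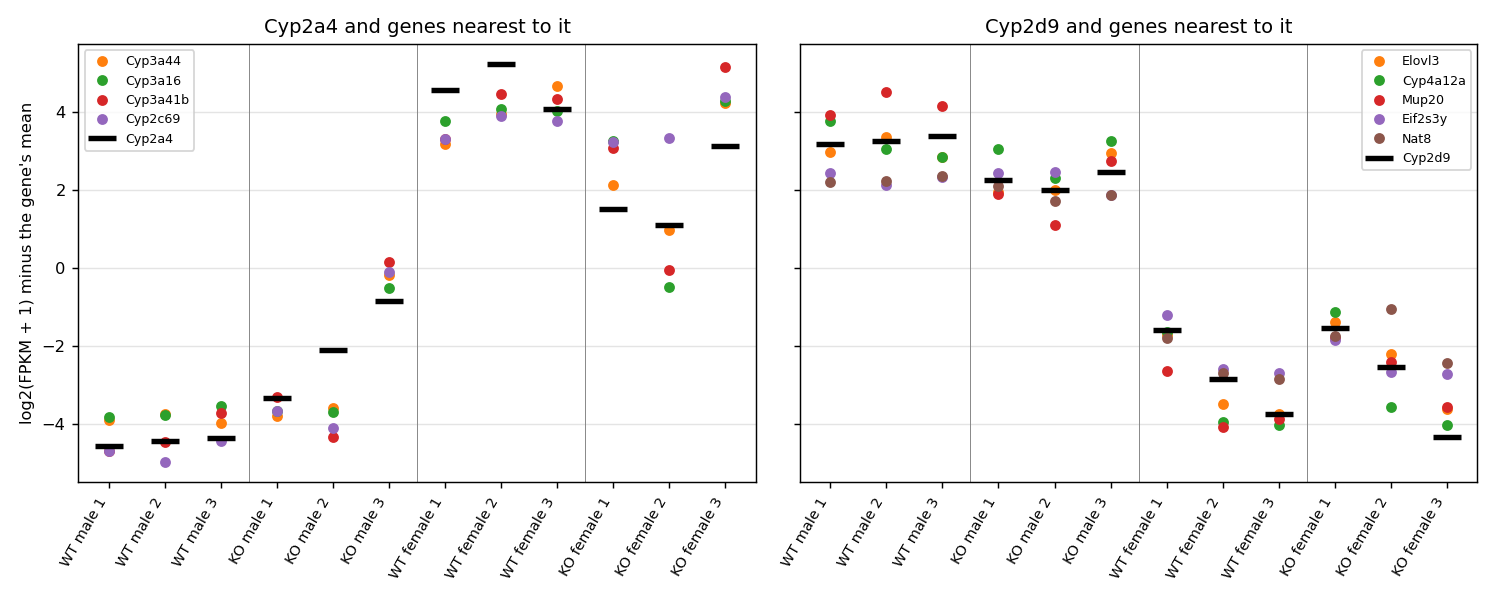
Points give log2(FPKM + 1) minus the gene's mean over the 12 libraries for 4 genes near Cyp2a4 (left) and the 5 genes nearest to Cyp2d9 (right), with the P450 itself as a black bar. In knockout male 2 the bar of Cyp2a4 (-2.11) lies above the 4 other genes (-4.34 to -3.59), and in knockout male 3, which has the Xist trace, all 5 are higher than in the other males.

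Close copies limit what the table can tell apart. Of the 50-base stretches in the reference transcripts, 38.0% of those of Cyp2a4 and 40.8% of those of Cyp2a5 occur in another gene, as do 40.5% for Cyp2d10, 29.0% for Cyp2d9, 27.5% for Cyp2a12 and 25.7% for Cyp2a22. No source used here says how reads that match several genes were counted, so levels of these copies are uncertain where a much higher copy lies beside a low one. In wild-type males Cyp2a4 was listed at 0.15 to 0.32 FPKM beside Cyp2a5 at 257 to 356. In knockout males 1 and 2 Cyp2a4 was 1.69 and 5.32 FPKM beside Cyp2a5 at 369 and 876. In knockout male 3, the library with the Xist trace, Cyp2a4 was 14.2 FPKM beside Cyp2a5 at 234. The part of shared reads in these values was not tested. Cyp2a22 was 3.98 to 4.99 FPKM beside Cyp2a12 at 288 to 338 in wild-type males.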

How the data were processed

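Liver RNA was measured in 12 libraries. Per the labels' protocols, mRNA was selected on oligo(dT) and reverse-transcribed from random primers. The deposited values are FPKM per gene, per the file headers, rounded by the authors to 2 decimals; the submitters' processing notes name TopHat2 and build mm10, and no quantifier or annotation release is named. 0 columns of per-sample values were left out.

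Groups follow the genotype and sex in the labels. The test was limma 3.58.1 (R 4.3.3) on log2 of FPKM plus a pseudocount of 1, for the 11514 genes that reached 1 FPKM in 3 or more libraries. The model had a mean for each of the 4 groups and moderated variances with a trend. Tests were two-sided, p-values were adjusted by Benjamini-Hochberg over the 11514 genes, and an adjusted p under 0.05 made a call. Log2 differences are on this scale with their SE, and folds are ratios of mean FPKM. The fit was tested on simulated data. FPKM are not counts, so no count test was run and no counting intervals were made; fragment numbers are approximate, from FPKM, transcript length and the fitted step of each library. Reference sequences were aligned with Biopython 1.88 in Python 3.11.15.

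The genes, lists and the rule for naming genes (all 10 P450s, tested neighbours, called list genes and up to 5 list genes with the smallest p per comparison, and the 5 nearest genes to Cyp2a4 and Cyp2d9, of which 1 is not reported here) were chosen with earlier results of these data known. Alternatives covered the pseudocount, the filter, scaling, array weights, the variance trend, the samples in the fit, a replicate block and each library left out. Leaving out the 3 libraries with transcripts of the other sex was chosen after seeing the data.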

Additional observations from a re-analysis of the deposited data

Results flagged for a closer look

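Tested genes of the 2 clusters were flagged where the genotype groups overlapped in neither sex and the effects had opposite signs. A called difference between effects would also have flagged a gene. Cyp2a22, Cyp2a4 and Cyp2g1 met the first rule, so their pattern is how they were picked. How many of all genes meet it was not counted. Groups did not overlap for 23.7% of all genes in males and 17.6% in females. In the flagged genes each knockout male lay above each wild-type male, and each knockout female below each wild-type female. For Cyp2g1 in males the highest wild-type value was 0.20 FPKM and the lowest knockout value 0.22, both very low. Of the genotype effects of these genes, that of Cyp2a22 in males passed the test in the main fit, and the others did not. With array weights those of Cyp2a22, Cyp2a4 and Cyp2g1 in females passed, and that of Cyp2a22 in males did not. The log2 difference between the male and female effects was 2.72 for Cyp2a22, 5.08 for Cyp2a4 and 1.22 for Cyp2g1. The difference itself was tested with limma and did not pass after adjustment over all genes (adjusted p = 0.0641, 0.0702 and 0.433).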

How the results depend on the processing

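Among the results reported as main counts or sums, 124 kept within 1.5 times or 1 SD of their value under the alternatives other than leaving out a library, and 37 moved. Of the P450s, the number called higher in knockout males became 2 with a pseudocount of 0.1 and with a minimum mean of 5 FPKM, and 0 with the male libraries alone, with array weights or with the replicate block; with each library left out it was 0 to 1. Array weights called 3 lower in knockout females. For the difference between the effects a pseudocount of 0.1 called 1, Cyp2a4 (adjusted p = 0.0436), and leaving out a library 0 to 2. In wild-type livers 2 were higher in males under median-ratio scaling and under quantile normalization, with Cyp2d10 added, and 2 lower under median-ratio scaling. In knockout livers the number lower in males was 1 with only these groups fitted and 1 without the trace libraries.

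All genes called in knockout males numbered 294, and 174 with no filter, 145 with median-ratio scaling, 140 with quantile normalization, 3 with the male libraries alone, 63 with array weights, 132 with the replicate block, 125 without the trace libraries and 58 to 570 with each library left out. In knockout females 2 were called, 1 with a pseudocount of 0.1, a mean of 5 FPKM or median-ratio scaling, 4 with no filter, 6 with the female libraries alone, 229 with array weights, 0 without the trace libraries and 0 to 12 with each library left out. For the difference between effects 3 became 5 with a pseudocount of 0.1, 10 with array weights, 5 with the replicate block and 1 to 22 with each library left out. Between the sexes 1539 in wild type became 904 with a mean of 5 FPKM, 525 without the trace libraries and 675 to 2081 with each library left out, and 423 in knockout became 216 with only these groups, 675 with array weights, 123 without the trace libraries and 201 to 637.

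Median-ratio scaling gave summed FPKM of 705 (Cyp2a) and 1798 (Cyp2d) in wild-type males and 920.4 (Cyp2d) in wild-type females. The signs of small differences turned. In the difference between effects, under median-ratio scaling Cyp2d13 was -0.22, Cyp2d26 -0.023, Cyp2d37-ps -0.0099 and Cyp2f2 -0.24, under quantile normalization Cyp2d13 -0.058, under array weights Cyp2d13 -0.045, Cyp2f2 -0.026 and Cyp2d22 0.11, and without the trace libraries Cyp2d22 0.037. In knockout females Cyp2d10 was 0.0063 without the trace libraries and Cyp2d40 0.0094 with array weights. Cyp2a12 was -0.021 in knockout males under median-ratio scaling. Between the sexes, Cyp2d37-ps was 0.020 in knockout without the trace libraries, and in wild type Cyp2d13 was 0.062 and Cyp2d22 0.21 under median-ratio scaling and Cyp2d40 -0.094 with array weights. With each library left out, the difference between effects ranged from -0.19 to 0.21 for Cyp2d13, -0.13 to 0.053 for Cyp2d22 and -0.084 to 0.21 for Cyp2f2; the knockout effect in females from -0.15 to 0.032 for Cyp2d10, -0.13 to 0.071 for Cyp2d40 and -0.70 to 0.70 for Cyp2d9; and that in males from -0.017 to 0.93 for Cyp2a5. The male minus female difference ranged in knockout from -0.21 to 0.74 for Cyp2a5 and -0.30 to 0.013 for Cyp2d37-ps, and in wild type from -0.40 to 0.0020 for Cyp2d13 and -0.037 to 0.19 for Cyp2d40. The causes were not tested.

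Replicate numbers were not used to pair the samples in the main fit. Same-numbered libraries of different groups had correlations of -0.32 to 0.56 between their deviations, over 0.1 in 6 of 18 pairs. Differently numbered libraries had -0.62 to 0.42, over 0.1 in 14 of 36 pairs. With so few libraries a group, these values cannot decide if the numbers mark pairs. With the replicate block Cyp2a22 in males missed the threshold (adjusted p = 0.0524) and Cyp2a5 between wild-type sexes passed it (0.0454). With 3 libraries a group, low values such as Cyp2a4 in wild-type males rest on few fragments.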
